A study of Mus musculus with 2 samples.

Results

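Integrin subunits, laminin chains, focal adhesion proteins and the hyaluronan receptor gene Cd44 were examined in a single poly(A) RNA library of 4T1 cells that carry a Cd28 knockout. The set is a list of gene symbols. It holds 43 genes of the 54532 listed in the count table: 15 integrin alpha subunits, 8 integrin beta subunits, 10 laminin chains, 9 proteins of focal adhesions, and Cd44, which belongs to none of these families. Every one of the 43 symbols was found in the table. The integrin genes Itga2b, Itgad and Itgax are not in the set and are given beside it.

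4T1 is a mammary carcinoma line from BALB/c mice, and the series compares wild-type 4T1 cells with Cd28 knockout 4T1 cells, with 1 sample of each and the same line and RNA preparation in both. The wild-type cells were not analysed here, because no usable count column carries a name that matches their label, so the values are levels in the knockout cells and no effect of the knockout was measured. How the knockout was made, and whether the cells are a single clone, is not stated by the labels. Cd28 itself had 8 reads, or 0.514 reads per 1000000 counted reads (exact Poisson 95% interval 0.222 to 1.01), which without a wild-type level does not check the label.

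Integrins are heterodimers of an alpha and a beta chain that span the plasma membrane and hold cells to the extracellular matrix. Their heads bind matrix proteins such as laminin, collagen or proteins with an Arg-Gly-Asp (RGD) motif, and the short tails of most beta chains bind talin, which switches the receptor on and ties it to actin. Laminins are trimers of an alpha, a beta and a gamma chain and the main adhesive proteins of basement membranes, on which mammary epithelium rests. Around bound integrins, scaffold proteins and kinases such as paxillin and focal adhesion kinase assemble into focal adhesions.

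Talin binds beta tails at an NPxY motif, which is asparagine, proline, any residue and tyrosine. Which copy of the motif binds talin was not examined, so a count of motifs is not a count of talin sites. The last 150 coding bases of the 3 beta chain genes with the highest levels are shown because these chains differ in that motif. They come from GENCODE vM21 (GRCm38) as the sense strand of the annotated principal transcript, 5′ to 3′ and ending before the stop codon, and capitals mark in-frame NPxY codons. Each stretch lies on 2 coding exons of a plus-strand gene: Itgb1 at chr8:128726100-128732085, Itgb5 at chr16:33947825-33948749 and Itgb4 at chr11:116007853-116008097.
Itgb1: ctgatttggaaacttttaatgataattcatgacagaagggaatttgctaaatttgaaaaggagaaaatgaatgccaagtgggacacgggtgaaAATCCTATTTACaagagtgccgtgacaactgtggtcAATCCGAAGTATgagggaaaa
Itgb5: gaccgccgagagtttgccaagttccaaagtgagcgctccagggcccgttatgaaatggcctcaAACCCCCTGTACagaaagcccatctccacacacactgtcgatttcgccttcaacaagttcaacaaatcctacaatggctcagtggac
Itgb4: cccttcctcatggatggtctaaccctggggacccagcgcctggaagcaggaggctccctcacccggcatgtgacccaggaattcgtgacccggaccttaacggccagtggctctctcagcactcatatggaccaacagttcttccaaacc
Itgb1 has 2 such motifs in this stretch and Itgb5 has 1. Itgb4 has 0, but its cytoplasmic part is far longer than in other integrins, so the stretch covers only its end. Among the other beta chains, Itgb3, Itgb6 and Itgb7 have 1 each, and Itgb2 and Itgb8 have 0. Only tyrosine was accepted at the last place. The Itgb2 stretch holds the forms NPLF and NPKF, and the Itgb7 stretch holds NPRF, with phenylalanine (F) there. These forms were not counted, so 0 does not mean that a talin site is absent. Over the 21592 protein-coding genes read in the same way, 84 (0.389%) have at least 1 in-frame NPxY in their last 150 coding bases and 2 genes (0.00926%) have at least 2.

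Of the 43 genes, 32 had at least 10 reads and were called detected, and of all 22046 protein-coding genes listed the share was 52.2%. Another 8 had 1 to 9 reads, and 3 (Itga9, Itgal and Lama1) had 0 reads, for which the one-sided 95% limit of 3 reads is 0.193 reads per 1000000 counted reads (CPM) and the two-sided exact interval, used in the plot of levels, ends at 0.237. The set took 142755 of the 15565990 counted reads (0.917%). To compare genes, each count was taken per base of the deposited gene length and expressed per 1000000 such units (TPM), and a percentile is the share of the 11497 detected protein-coding genes with a lower TPM. By that scale 21 members lay above the median of the detected genes, 24.4 TPM, and the median over all 43, undetected genes included, was 22.75 TPM at percentile 47.6. The 24.4 TPM median is over the 11497 detected genes, so it is not the midpoint of the 22046 listed ones.

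The set was uneven, and its reads lay on few genes. The 5 genes with the most reads held 59.7% of the set's reads and the top 10 held 79.2%. In TPM, 8 genes exceeded 100 and 7 of these lay in the top 5% of detected genes, while 6 detected members lay below percentile 10. Listed from the highest TPM down by the deposited gene length, 19 of the 31 pairs of neighbouring detected members differed by more than the counting error of their ratio. The neighbours that did not were Tln1 and Lamb1, the run from Src through Pxn and Bcar1 to Lamb2, Itga6 and Cd44, the run from Itgb4 through Vcl to Itgav, Parva and Ptk2, Itgb2 and Itga7, and the run from Itga1 through Ilk and Itgb3 to Itgae. In a bulk library, fewer cells of a type and less RNA per cell cannot be told apart, so a low level may be that of all cells or of a few.

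**Figure D1:**
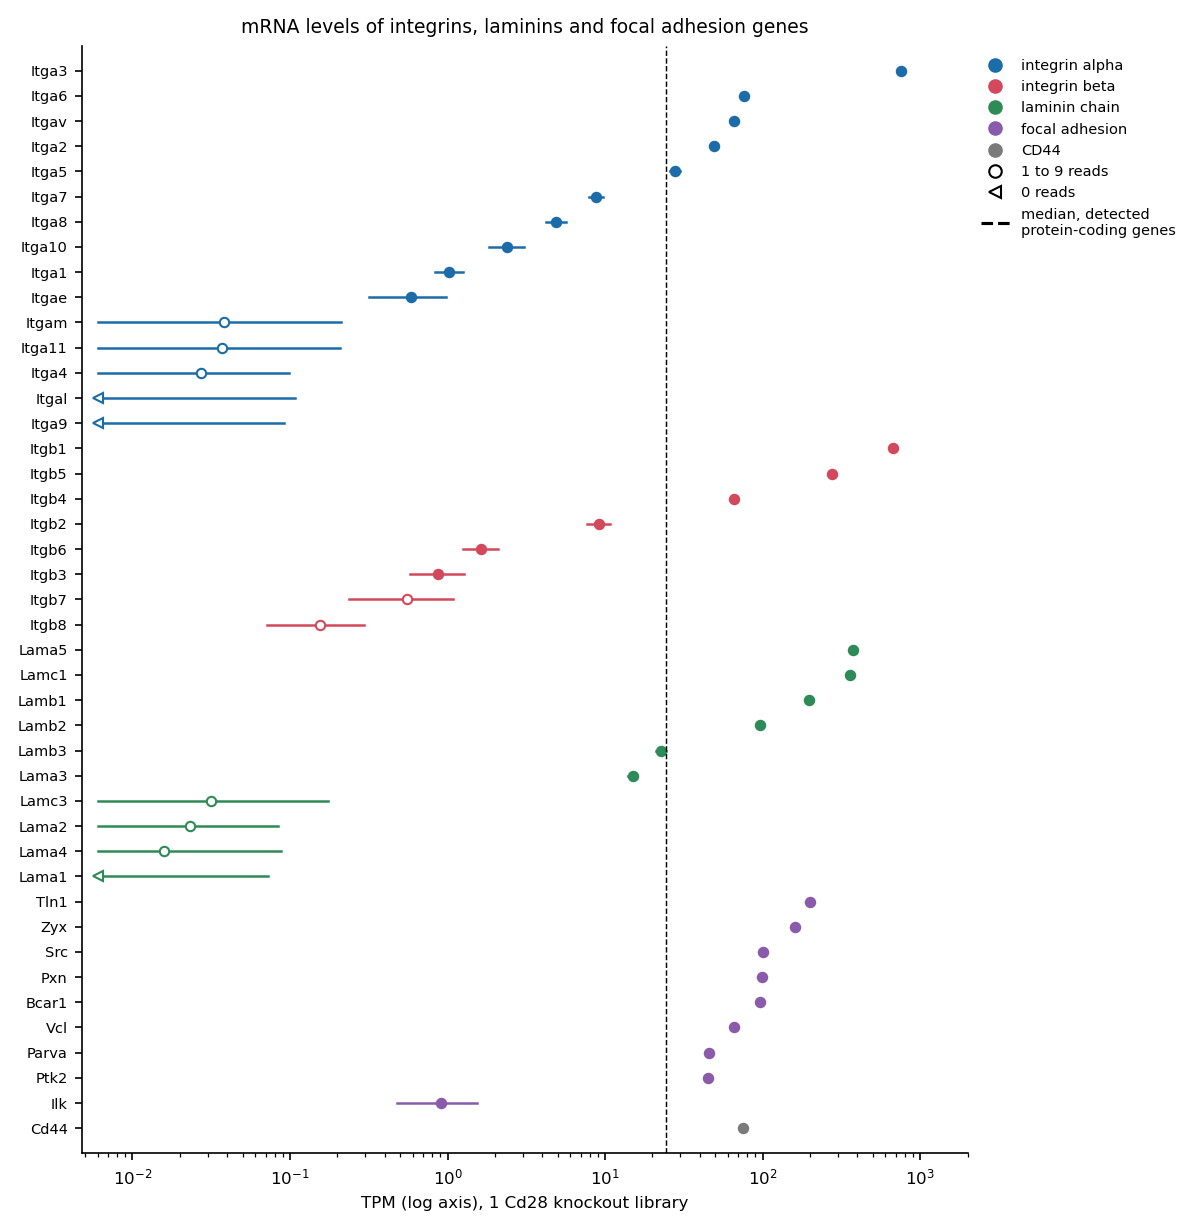
TPM of the 43 genes on a log axis, grouped by class and sorted within it, in the 1 Cd28 knockout library; bars are exact Poisson 95% intervals, cut at the left edge, and cover counting error only. Itga3 and Itgb1 lie furthest right at 760.3 and 674 TPM, and open symbols mark the 11 members with fewer than 10 reads, which all lie below 1 TPM.

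Among the alpha subunits, 10 of 15 were detected and 5 lay above the median of the detected genes, with a class median of 2.39 TPM. Itga3 (ENSMUSG00000001507, chr11:95044474-95076801, minus strand, mm10, 27 merged exons), which pairs with Itgb1 to bind laminins in epithelia, had 22770 reads, 1463 CPM (1444 to 1482) and 760.3 TPM (750.4 to 770.2), at percentile 98.97. It was the highest member of the set and held 76.3% of the summed TPM of the 15 alpha chains.

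Itga6 (chr2:71745616-71858416, plus strand), the other laminin-binding alpha chain of epithelia, followed with 3584 reads and 75.7 TPM (73.3 to 78.2). Itga3 was 10.04 times as high (9.69 to 10.4) by TPM, and 5.62 times with the length of a single transcript per gene in place of the merged exon length. Itga7, a laminin-binding chain known from muscle, had 370 reads and 8.72 TPM at percentile 23.75. All 3 laminin-binding alpha chains were thus detected, at levels that did not overlap within counting error.

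Itgav (chr2:83724397-83806916, plus strand), the shared alpha chain of several receptors for RGD-containing ligands, had 3690 reads and 65.5 TPM (63.4 to 67.6), at percentile 80.03. Itga5, the alpha chain of the classical fibronectin receptor, had 716 reads and 27.7 TPM (25.7 to 29.8), which is 1.13 times the median of the detected genes. Its percentile was 54.07 by the deposited gene length but 44.46 with a single transcript length, which is below the median. Itga8, which with Itgb1 binds nephronectin, had 188 reads and 4.87 TPM. The 3 alpha chains of RGD receptors therefore ranked in the order Itgav, Itga5, Itga8, each beyond the counting error of the next.

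The collagen-binding alpha chains were dominated by Itga2. It had 1848 reads and 49.4 TPM (47.2 to 51.7), against 65 reads and 2.39 TPM (1.84 to 3.05) for Itga10, 100 reads and 1.03 TPM (0.834 to 1.25) for Itga1, and 1 read for Itga11. Itga2 and Itga1 are neighbours on the minus strand of chromosome 13, at 114833081 to 114932100 and 114953096 to 115101964, with 20995 bases between them. Itga2 was 48.2 times as high as Itga1 (39.4 to 59.5) in TPM, 28.5 times with a single transcript length and 18.5 times by reads alone. The deposited length of Itga1 is 18599 bases against 7133 for Itga2, and the gene Pelo, with 34 reads, lies within Itga1.

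The promoter stretches of these neighbours are shown because genes so close together, and of the same ligand class, stood at such different levels. They are RefSeq sequences on GRCm38.p6, minus strand, 250 bases before to 50 after the start, at chr13:114932051-114932350 for Itga2 and chr13:115101915-115102214 for Itga1, and capitals mark each CG dinucleotide.
Itga2: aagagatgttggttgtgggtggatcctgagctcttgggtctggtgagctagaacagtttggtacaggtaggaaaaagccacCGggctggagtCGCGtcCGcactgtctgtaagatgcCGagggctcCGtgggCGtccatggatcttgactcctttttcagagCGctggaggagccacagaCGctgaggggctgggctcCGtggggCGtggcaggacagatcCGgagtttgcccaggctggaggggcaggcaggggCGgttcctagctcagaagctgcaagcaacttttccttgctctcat
Itga1: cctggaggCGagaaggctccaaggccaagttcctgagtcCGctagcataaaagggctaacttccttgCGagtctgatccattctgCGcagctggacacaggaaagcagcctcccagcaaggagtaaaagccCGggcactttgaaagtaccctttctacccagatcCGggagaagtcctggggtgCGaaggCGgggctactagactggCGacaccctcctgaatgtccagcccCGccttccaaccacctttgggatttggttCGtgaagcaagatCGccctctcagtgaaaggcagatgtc
The Itga2 stretch holds 13 CG and the Itga1 stretch 12, and CG reads the same on both strands. Promoter stretches were found for 28 members, with the first RefSeq entry used for each gene. Some lie inside the gene as placed in the count table, as for Itga9 and Lamb3, so they may not be at the main start. The median was 18 CG in the 21 members with at least 10 reads and 10 in the 7 members below that. Over all protein-coding genes with a stretch it was 21 CG in the 9075 with at least 10 reads and 4 in the 7422 below, and 95.04% of the 16497 promoters hold at least 1 CG.

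The remaining alpha chains are best known from leukocytes, and of these Itgae alone reached 10 reads. Itgae, the alpha chain of the E-cadherin receptor of intraepithelial T cells, had 14 reads and 0.583 TPM. Itga4, a receptor chain for VCAM-1 and fibronectin, had 2 reads. Itgam, the alpha chain of the complement receptor Mac-1, had 1 read, and Itgal, that of LFA-1, had 0. Itga9, which binds tenascin-C and VCAM-1 and is not restricted to leukocytes, also had 0 reads. Outside the set, Itgax had 0 reads, Itgad had 4, and Itga2b, the platelet alpha chain, had 38 reads and 1.33 TPM.

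Of the 8 beta subunits, 6 were detected and 3 lay above the median of the detected genes. Itgb1 (ENSMUSG00000025809, chr8:128685654-128733200, plus strand, 17 merged exons), the partner of most alpha chains, had 14417 reads, 926 CPM (911 to 941) and 674 TPM (663 to 685), at percentile 98.85. Itgb5 (chr16:33829665-33949338, plus strand), which pairs with Itgav to bind vitronectin, had 5157 reads and 277 TPM (269 to 284). Itgb4 (chr11:115974709-116008412, plus strand), the hemidesmosomal chain that pairs with Itga6, had 2440 reads and 66.3 TPM (63.7 to 69.0).

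Itgb1 was 2.43 times as high as Itgb5 (2.36 to 2.51) and 10.2 times as high as Itgb4 (9.73 to 10.6) in TPM, and 5.91 times Itgb4 by reads alone. Itgb1 made up 65.5% and Itgb5 26.9% of the summed TPM of the 8 beta chains. Itgb6, an epithelial chain that with Itgav activates latent TGF-β, had 61 reads and 1.64 TPM (1.25 to 2.10). Itgb3, the partner of Itgav and of the platelet chain, had 27 reads and 0.872 TPM (0.575 to 1.27). Itgb8, another partner of Itgav in TGF-β activation, had 9 reads, and Itgb7, a chain of lymphocyte homing receptors, had 8.

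Itgb2, the common beta chain of leukocyte integrins, had 146 reads and 9.12 TPM (7.70 to 10.7), at percentile 24.6. Its usual partners were near 0: Itgal and Itgax had 0 reads, Itgam 1 and Itgad 4. Of 18 leukocyte markers, 1 was detected, Cd68 with 555 reads, and 12 had 0 reads, among them Ptprc, the pan-leukocyte marker CD45. Coro1a, with 6 reads, was the next. No 100-base stretch of the Itgb2 transcript was shared with another gene's transcripts. Of its 50-base stretches, 98.84% occurred in no other gene's transcripts.

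Setting the chains side by side by known heterodimer shows which pairs had both mRNAs. Both chains were detected in 13 of the 21 pairs considered. These were all 4 laminin-binding pairs, 6 of the 7 RGD-binding pairs and 3 of the 4 collagen-binding pairs, and 0 of the 6 pairs that bind ICAM, VCAM-1, MAdCAM-1, tenascin or E-cadherin. Levels of chain mRNAs are not levels of assembled receptors.

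In 4 of the 13 pairs the alpha chain was the higher mRNA, and in 9 the beta chain was. Itga3 and Itgb1 were close by the deposited gene length, with an alpha to beta ratio of TPM of 1.13 (1.11 to 1.15). Their ratio was 1.28 with a single transcript length and 1.58 by reads alone. Itga6 and Itgb4 were also close by the deposited gene length, at 1.14 (1.084 to 1.202). That ratio was 2.19 with a single transcript length, 1.47 by reads alone and 1.05 with the exon length under no other gene. Between Itgav and Itgb5 the beta chain was higher, at a ratio of 0.237 (0.227 to 0.247), or 0.716 by reads alone. Against Itgb6 and Itgb3, Itgav was the higher chain by 40.04-fold (31.1 to 52.5) and 75.1-fold (51.5 to 114), and by 60.5-fold and 137-fold by reads alone.

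The other alpha chains stood far below Itgb1. The ratio of TPM to Itgb1 was 0.112 for Itga6 (0.108 to 0.117), 0.0972 for Itgav, 0.0733 for Itga2 and 0.0411 for Itga5. It was 0.0129 for Itga7, 0.00722 for Itga8, 0.00355 for Itga10 and 0.00152 for Itga1. With a single transcript length the ratio of Itga6 was 0.228 and that of Itga7 0.0244. By reads alone the ratio was 0.256 for Itgav, 0.128 for Itga2, 0.0130 for Itga8 and 0.00694 for Itga1, and with the exon length under no other gene that of Itga10 was 0.00534. In none of the length corrections tried did the direction of any of the 13 pairs turn.

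**Figure D2:**
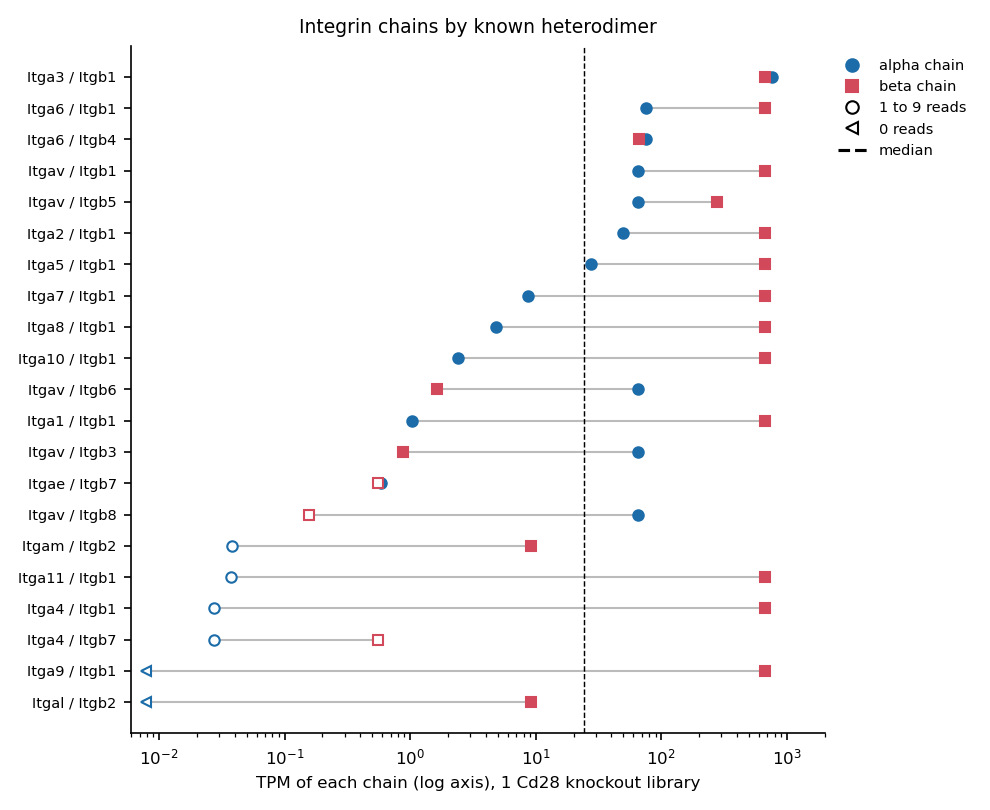
TPM of the alpha chain (circles) and beta chain (squares) of 21 known integrin heterodimers on a log axis, sorted by the lower chain, in the 1 Cd28 knockout library; open symbols have 1 to 9 reads, triangles 0 reads, and the dashed line is the median of detected protein-coding genes, 24.4 TPM. Both chains lie to the right of that line in the 7 pairs at the top, and Itga3 with Itgb1 is the pair whose lower chain is highest, at 674 TPM.

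Among the laminin chains, 6 of the 10 members were detected and 4 lay above the median of the detected genes. Lama5 (ENSMUSG00000015647, chr2:180176373-180225859, minus strand, 79 merged exons), the broadly expressed epithelial alpha chain, had 22246 reads and 372 TPM (368 to 377), at percentile 97.79. Lamc1 (chr1:153218922-153332786, minus strand), the gamma chain of most laminins, had 15516 reads and 358 TPM (352 to 363). Lama5 exceeded Lamc1 1.04-fold (1.02 to 1.06) by TPM but not with a single transcript length, where the ratio was 0.960.

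Lamb1 (chr12:31265234-31329644, plus strand), the common beta chain, had 10304 reads and 198 TPM (194 to 202). Lamb2, the beta chain of synaptic and kidney basement membranes, had 3073 reads and 96.3 TPM (93.0 to 99.8). Lamb1 was 2.06 times as high as Lamb2 (1.98 to 2.14), or 3.26 times with a single transcript length. Lamb3, the beta chain of epidermal laminin, had 789 reads and 22.75 TPM (21.2 to 24.4), just under the median of the detected genes.

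Lama3 (chr18:12333819-12583013, plus strand), the alpha chain of epidermal laminin, had 843 reads and 15.0 TPM, 24.9-fold below Lama5 (23.2 to 26.7). Lama1, the embryonic alpha chain, had 0 reads. Lama2, known from muscle and peripheral nerve, had 2 reads, Lama4, known from vessels, had 1, and the gamma chain Lamc3 had 1. At this depth these 4 genes were at or near 0, and the upper ends of their two-sided 95% intervals ran from 0.0727 TPM for Lama1 to 0.174 TPM for Lamc3.

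By trimer, all 3 chains were detected in 4 of the 12 laminins considered. The spreads between chains given here are by the deposited gene length and change with the length used. Laminin-511, made of Lama5, Lamb1 and Lamc1, had the most even chains, with the highest 1.88 times the lowest. With a single transcript length these chains were at 257.6, 234.9 and 268.4 TPM, and by reads alone at 1429, 662 and 996.8 CPM. In laminin-521 Lamb2 was the lowest chain and the ratio of highest to lowest was 3.87. Lamb2 was at 71.99 TPM with a single transcript length and at 197.4 CPM. Laminin-311 and laminin-321 both had Lama3 as the lowest chain, 23.9-fold below Lamc1. The other 8 trimers contain Lama1, Lama2 or Lama4 and lacked a detected alpha chain.

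**Figure D3:**
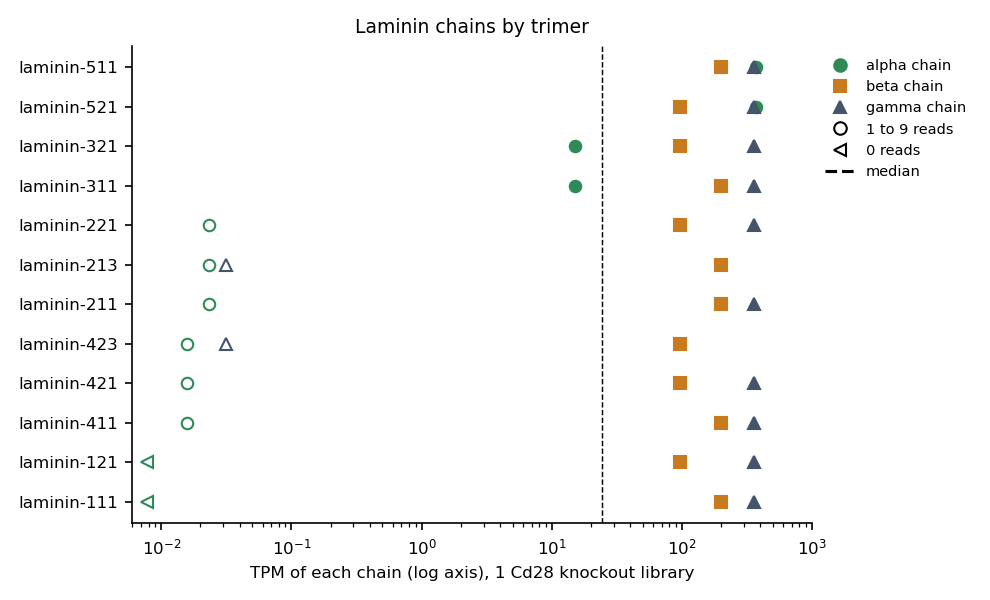
TPM of the alpha, beta and gamma chain of 12 laminin trimers on a log axis in the 1 Cd28 knockout library; open symbols have 1 to 9 reads, left-pointing triangles 0 reads, and the dashed line is the median of detected protein-coding genes, 24.4 TPM. All 3 chains lie right of that line in laminin-511 and laminin-521, and the alpha chains Lama1, Lama2 and Lama4 lie below 0.1 TPM.

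All 9 focal adhesion genes were detected and 8 lay above the median of the detected genes, with a class median of 96.9 TPM at percentile 87.8. Tln1 (chr4:43531519-43562691, minus strand, 59 merged exons), which encodes talin, the activator that binds the tails of most beta chains, had 10209 reads and 199 TPM (195 to 202). Vcl, which encodes vinculin, the protein that reinforces the bond of talin to actin, had 2837 reads and 66.03 TPM (63.6 to 68.5). Tln1 was 3.01 times Vcl (2.89 to 3.14), and 2.33 times when only exon length under no other gene is counted. Zyx, which encodes zyxin, a LIM protein of adhesions and stress fibres, had 4512 reads and 159.6 TPM (155.0 to 164).

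Src, Pxn and Bcar1 lay close together by the deposited gene length. Src, the founding member of the Src kinases, had 2292 reads and 99.97 TPM (95.9 to 104). Pxn, which encodes the scaffold paxillin, had 4280 reads and 99.6 TPM (96.6 to 103), and Bcar1, which encodes the docking protein p130Cas, had 2310 reads and 96.9 TPM (93.0 to 101). These 3 did not differ beyond counting error on that scale. With a single transcript length Pxn was at 211.6 TPM, Bcar1 at 96.95 and Src at 77.75, and by reads alone Pxn was also above the other two.

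Ptk2, which encodes focal adhesion kinase, had 2781 reads and 44.9 TPM (43.3 to 46.6), at percentile 69.5. Src was 2.23 times Ptk2 (2.11 to 2.35) by the deposited gene length, but the ratio was 0.991 (0.938 to 1.05) with a single transcript length and 0.824 by reads alone, so their order is set by the length chosen. The deposited length of Ptk2 is 11803 bases and that of Src 4371. Parva, which encodes alpha-parvin, a partner of integrin-linked kinase on actin, had 2452 reads and 46.03 TPM (44.2 to 47.9), or 72.6 TPM with a single transcript length.

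Ilk, which encodes integrin-linked kinase, stood apart from its class. It had 13 reads, 0.835 CPM (0.445 to 1.43) and 0.903 TPM (0.481 to 1.55), at percentile 3.35, and it was the lowest of the 9 genes. Ilk lies at chr7:105736592-105742925 on the plus strand, and exons of 2 genes on the minus strand cover 89.7% of its merged exon length. Taf10, which encodes a TFIID subunit, covers 2106 of the 2744 bases and had 764 reads, and Rrp8, which encodes a nucleolar methyltransferase, covers 355 bases and had 676. Only 283 bases of Ilk lie under no other gene. With all 13 reads taken to come from those bases, its TPM was 9.05 and its percentile 22.9, but where the reads fell is not known.

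Neither the strand setting of the count nor the treatment of reads that fall on 2 genes is stated by the labels, so reads of Ilk and of its antisense neighbours cannot be told apart, and the part of the overlap in the low count was not tested. Across the annotation, 634 of 21951 protein-coding genes (2.89%) had at least 50% of their exon length under other genes. Of these, 162 (25.6%) had at least 10 reads, against 53.2% of the 21317 others. Overlaps on either strand were pooled and the genes were not matched, so the part of overlap in that difference was not tested. The partners of ILK in its complex were unequal: Lims1, which encodes PINCH1, had 93.6 TPM and Rsu1, which binds PINCH1, 24.75 TPM, against 202 and 103 TPM with a single transcript length, and 3 of the 5 partners listed were detected.

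Of the other 42 members, 14 also had some exon length under another gene, and in 3 of these it was over 10%. Itgam had 68.7% of its exon length under Gm49368, a gene on the same strand with 0 reads, and only 9.66% of its 100-base stretches occurred in no other gene's transcripts beside a count of 1 read. Itga10 had 33.5% under Gm42957, also on the same strand and with 0 reads. Vcl had 25.5% under Ap3m1, an antisense gene with 853 reads, and 61.4% of its stretches were its own. Smaller antisense overlaps with genes that had reads affected Zyx (4.38% under Epha1, 685 reads), Tln1 (3.67% under Creb3, 530 reads), Itgb4 (7.66%, 28 reads), Itgav (5.90%, 4 reads), Lama3 (1.83%, 6 reads) and Itga7 (0.111%, 130 reads). Leaving out Ilk and Itgam, 31 of the 41 other members were detected.

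**Figure D4:**
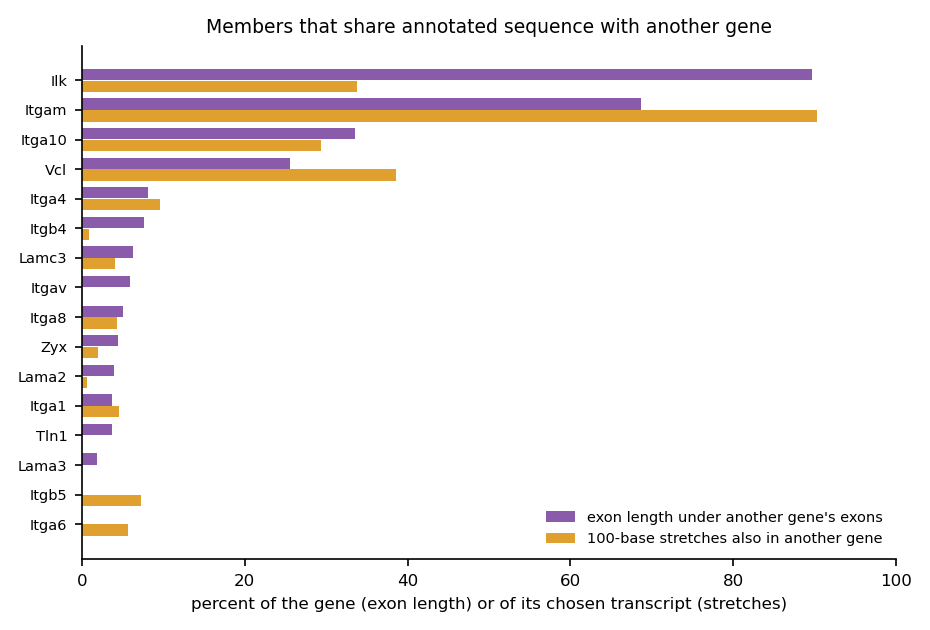
Percent of each gene's merged exon length under exons of another gene (purple) and percent of 100-base stretches of 1 chosen transcript that also occur in transcripts of another gene (orange), for members above 1% on either measure in GENCODE vM21. Ilk leads the first measure at 89.7% and Itgam follows at 68.7%.

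**Figure D5:**
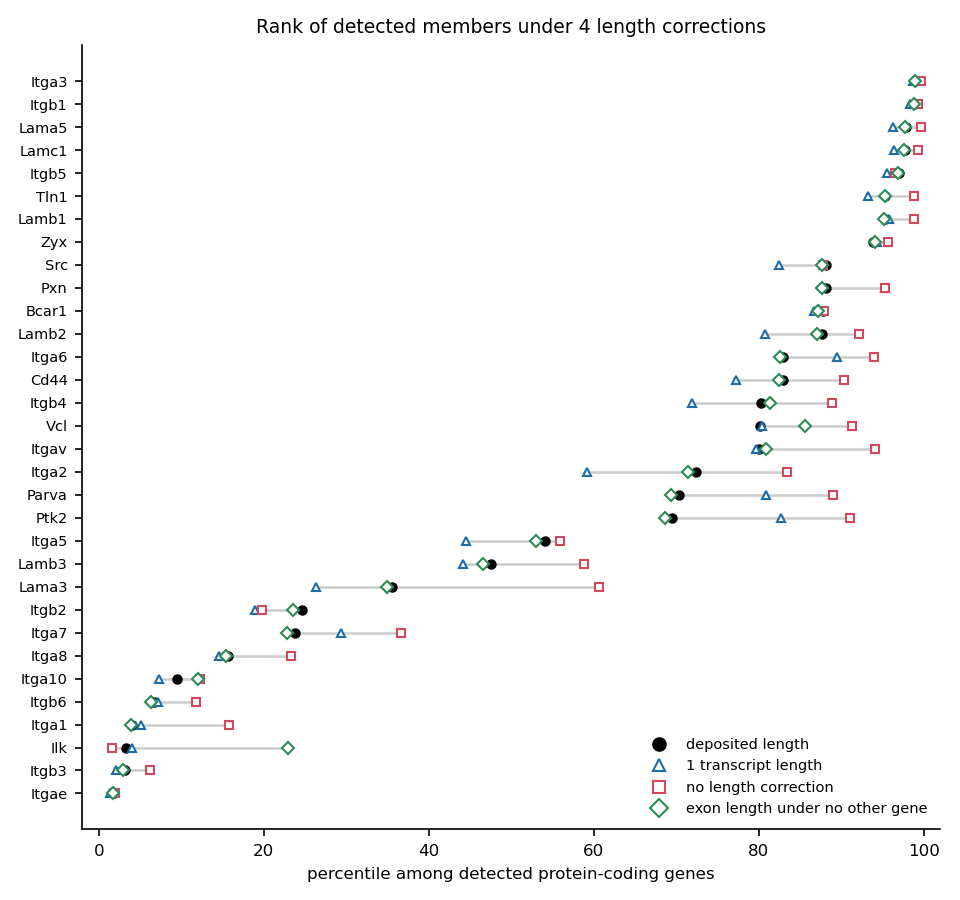
Percentile of each of the 32 detected members among detected protein-coding genes when reads are divided by the deposited gene length (filled circles), the length of 1 transcript (triangles), no length (squares) or the exon length under no other gene (diamonds). The top 8 stay above percentile 90 under all 4, and Ilk moves from 3.35 to 22.9 with the last, which takes all reads of a gene to come from that length.

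Cd44 (chr2:102811141-102901665, minus strand, 19 merged exons), the receptor for the matrix polysaccharide hyaluronan, had 2680 reads, 172 CPM (166 to 179) and 75.4 TPM (72.6 to 78.3), at percentile 82.9. By the deposited gene length that level did not differ from that of Itga6 beyond counting error, but with a single transcript length Cd44 was at 62.95 TPM and Itga6 at 113.7 TPM. All 12 genes listed as CD44 partners or hyaluronan enzymes were detected and 8 lay above the median, led under each length correction by the membrane-actin linkers Msn (moesin, 494 TPM) and Ezr (ezrin, 302 TPM). The count does not separate the splice variants of Cd44.

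The wider adhesion machinery was examined in 9 lists of 117 genes. Of these, 105 were detected, beside 52.2% of all 22046 protein-coding genes listed, and 76 lay above the median of the detected genes. The lists held 2.77% of all reads. The 2 genes named from each list are the highest in TPM by the deposited gene length. Integrin activators and inactivators had 14 of 16 detected, with a median of 37.97 TPM. The actin crosslinker Flna, which competes with talin on beta tails, had 571 TPM, and Rap1b, a small GTPase that recruits talin, had 125 TPM. Of the focal adhesion scaffolds and actin linkers, 27 of 30 were detected, with a median of 47.3 TPM, the LIM protein Trip6 at 307 TPM and the tensin Tns4 at 231 TPM. With a single transcript length Pdlim5 (280.1 TPM) and Actn4 (242 TPM) were above Trip6 (238 TPM), and by reads alone Tns3 (561 CPM) was the highest of that list. All 12 adhesion kinases and phosphatases were detected, with Ptpn11, which encodes SHP2, at 116 TPM and the kinase Pak2 at 80.02 TPM. With a single transcript length the kinase Rock2, at 144 TPM, was above both.

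On the ligand side, 18 of 20 integrin ligands were detected, with a median of 91.2 TPM. The 2 highest by the deposited gene length were Thbs1 (1286 TPM) and Spp1 (1116 TPM), which encode thrombospondin-1 and osteopontin, both ligands of RGD-binding integrins. Fn1, which encodes fibronectin, was the highest by reads alone (2816 CPM, against 2631 CPM for Thbs1). Of 13 laminin partners and receptors, 12 were detected, with a median of 57.8 TPM. Their highest was Rpsa (3415 TPM), which is also a ribosomal protein gene, followed by Agrn (188.5 TPM), which encodes the laminin-binding proteoglycan agrin. Without length correction the intervals of Agrn (589.8 CPM) and Hspg2 (599.6 CPM) overlapped. All 6 tetraspanins that associate with laminin-binding integrins were detected and above the median, with Cd9 at 260.4 TPM and Cd63 at 231 TPM. That order turned with a single transcript length, where Cd63 was at 529.6 TPM and Cd9 at 299.8, and by reads alone.

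Markers of cell types were read as a check of the labelled line. Of 10 epithelial markers, 8 were detected, all above the median, with Krt18 at 2183 TPM and Krt8 at 1005 TPM, and Krt5 had 0 reads. Of 10 fibroblast markers, 3 were detected, with Pdgfra at 15.96 TPM and Postn at 1.82 TPM, and Col3a1, Dcn, Lum and Pdgfrb had 0 reads. Of 8 endothelial markers, 2 were detected, Eng at 73.1 TPM and Vwf with 15 reads, Tek had 6 reads at 0.243 TPM, and Pecam1 and Kdr had 0. Of 6 platelet and megakaryocyte markers, 1 was detected, Gp1ba at 2.81 TPM, and Ppbp had 7 reads; these values stand beside the low counts of Itga2b and Itgb3, and their part in those counts was not tested.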

How the data were processed

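Poly(A) RNA of 4T1 cells was sequenced. The authors deposited raw counts of reads for each gene, with each gene's position and length. The submitters' processing notes name build mm10 and the tools featureCounts 1.5.0-p3, HISAT2 2.0.5 and CASAVA. The annotation release, strand setting and handling of reads on several genes were not given in the sources used here. Only the knockout column was used. The table has 1 other column of per-sample counts, whose name matches no sample label; it was not used, and the planned comparison of knockout with wild type was not made.

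From the deposited counts, CPM (per 15565990 counted reads) and TPM (deposited gene length) were computed with exact Poisson 95% intervals. Intervals of ratios come from the exact binomial interval of the reads. Both cover counting error only: no molecular identifiers are mentioned, and with 1 library no test was possible. A gene with at least 10 reads was called detected. The length alternatives were the transcript with the longest coding part, no length, and the exon length under no other gene. GENCODE vM21 held 54409 of the 54532 IDs, and all 43 members had the same position and length in it. Promoters are from RefSeq, by the first entry of each gene. Protein sequences were not used here; NPxY was read from in-frame codons on the sense strand. The members and lists were chosen with earlier results of these data known. All members are named, with the 2 genes of highest TPM in each list and Cd28; 1 further gene, and the complex that needs it, is not reported here; further genes were picked with their values in view. Ccn1 and Ccn2 were matched under older symbols. The intervals, TPM and shared-sequence measure were tested on simulated data. Python 3.11.15, numpy 2.4.6, pandas 2.3.3, scipy 1.17.1 and matplotlib 3.10.9 were used.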

Additional observations from a re-analysis of the deposited data

How the results depend on the processing

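The count of detected members was 32, and 40, 34 and 27 at minimums of 1, 3 and 100 reads. Members above the median numbered 21, and 20 to 23 under the other length and reference choices. The summed level of the members was 9171 CPM, and 9297 without mitochondrial reads, 9533 over protein-coding reads and 11320 without the 100 genes with the most reads, which by construction use smaller totals. Trimers with every chain above the median numbered 2, and 4 with no length correction, which moves long genes up. Of 30 recomputed gene ratios, 3 reversed, meaning that the ratio itself crossed 1. Lama5 over Lamc1 was 0.960 with a single transcript length. Src over Ptk2 was 0.824 by reads alone and 0.991 with a single transcript length. The last had an interval of 0.938 to 1.05, so it did not differ from 1 beyond counting error. Of 39 recomputed heterodimer ratios, 25 left their counting interval and 0 reversed. Alternatives by exon length under no other gene, the count without heavily overlapped members, and every alternative of the gene ratios, the 3 reversals included, were chosen after seeing the data. No paired analysis was possible because only 1 library was used, so there was also no replicate to leave out; alternatives of the comparison of knockout with wild type were not run. Depth limits the 11 members under 10 reads, whose intervals are wide relative to their levels.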
